A study of Cyanidioschyzon merolae strain 10D with 6 samples.

Results

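The genes described here are the subtelomeric genes of the red alga Cyanidioschyzon merolae that lie inside the outermost gene of each chromosome end. A nuclear gene was taken if its annotated start or end lay within 20000 bp of a chromosome end and it was not the first or the last annotated gene of its chromosome. This gave 69 genes on left ends and 63 on right ends, of 4984 annotated genes of which 4743 are nuclear, and they are called inner subtelomeric genes below. The rule used positions only, but it was set with earlier results of these data known. On left ends the distance was counted from position 1, and on right ends from the last base that carries any annotation, since chromosome lengths were not used here. On the 20 nuclear chromosomes, annotation started at positions 212 to 1682. Poly(A) RNA was sequenced without strand information from 3 samples of the mutant line Cme(z)-1 and 3 samples of the wild-type strain 10D. The labels name a single mutant line, and the title of the study speaks of lost function of PRC2 (Polycomb Repressive Complex 2). Mutant and wild type were both grown in acidic MA2 medium (pH 2.5 to 3.0) at 42 °C, in aerated tubes under constant light (80 µmol per square metre per second). Whether the 3 samples of a group were separate cultures is not stated, so the p-values rest on a spread between samples that may be only technical. With 1 mutant line, any other trait of that line and the loss of PRC2 cannot be told apart.

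PRC2 is an enzyme complex whose catalytic subunit, E(z), methylates a lysine of histone H3, a mark that goes with low transcription of nearby genes in many eukaryotes. Subtelomeres, the regions next to the repeats that cap a chromosome, often hold transposable elements (TEs) and blocks of sequence copied between chromosomes. The outermost gene is next to that repetitive region, while the inner subtelomeric genes lie between it and the body of the chromosome. No function is annotated for the inner subtelomeric genes in the sources used here, so each is given by its identifier, its place and what surrounds it.

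The libraries held between 8292567 and 10754544 counts in the mutant and between 7860491 and 9188335 in the wild type. The labels give no identifier for E(z). CMQ156C stands for it here by what is published on the alga, and its counts were known beforehand, so they are no independent check of the labels. It had 0 counts in each mutant library and 1533 to 1776 in each wild-type library. The groups separated on the first principal component, which carried 51.4% of the variance. TE copies took 10.1% to 11.5% of counts in the mutant and 9.05% to 9.38% in the wild type, and organelle genes took 0.791% to 1.13% in the mutant and 0.845% to 1.01% in the wild type.

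All inner subtelomeric genes are annotated as protein-coding with 1 exon, and their annotated lengths ran from 205 to 10453 bp with a median of 1236 bp. Each of the 40 chromosome ends held between 1 and 7 of them. They began 4925 to 19993 bp from the end. Nearly all were transcribed in both groups. Counts were present in every library for 129 of them, and for 72 the wild-type mean reached 100 CPM (CPM, counts per 1000000 of the library total after TMM scaling). Per kilobase of annotated length, the median level over the 131 genes with enough counts to test was 83.7 CPM in the mutant and 78.7 CPM in the wild type. For the 4508 tested interior genes, those further from the ends, it was 86.6 CPM per kb in the mutant and 90.2 CPM per kb in the wild type. The wild-type median of the inner subtelomeric genes stood at the 43.2 percentile of the interior genes.

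Of the 131 tested inner subtelomeric genes, 7 rose and 2 fell in the mutant, and 122 did not pass (quasi-likelihood test of edgeR, p adjusted by Benjamini-Hochberg over all genes and TE copies, threshold 0.05). Over all 4677 tested nuclear genes 1.3% rose and 1.86% fell, against 5.34% and 1.53% of the inner subtelomeric genes. The count of raised genes was 4 when mutant replicate 1 or wild-type replicate 1 was left out. The count of lowered genes was 0 without mutant replicate 1, mutant replicate 3, wild-type replicate 1 or wild-type replicate 2, and 1 without either of the remaining libraries. The raised genes were CMA142C, CMJ318C, CMR502C, CML004C, CMJ005C, CMR500C and CMH282C, in order of their fold change, and the lowered ones were CMN003C and CMJ315C. DESeq2 called 10 higher and 6 lower, against 2.33% and 4.47% of all nuclear genes, and limma voom called 7 and 2, against 1.3% and 1.75%. In 4 of the 7 genes raised in the edgeR test the level was at least 2-fold higher, against 36 of the 61 raised nuclear genes. In a bulk culture, a change in every cell and a larger change in some of the cells cannot be told apart.

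The median log2 fold change, mutant over wild type, was 0.034, against -0.036 over all tested nuclear genes, and 120 of 131 genes (91.6%) lay within 0.5 of 0 on the log2 scale, against 93.5% of all nuclear genes. All 3 mutant values lay above all 3 wild-type values for 24 genes (18.3%), against 8.15% of all nuclear genes. They lay below for 14 genes (10.7%), against 13.3%. With total counts as the only scaling, both medians were higher, 0.093 for the inner subtelomeric genes and 0.024 for all nuclear genes. Together the inner subtelomeric genes took 2.45%, 2.42% and 2.50% of nuclear gene counts in the mutant libraries, and 2.32%, 2.21% and 2.27% in the wild-type libraries. The groups did not overlap, and the means were 2.46% ± 0.0363 in the mutant and 2.27% ± 0.0552 in the wild type (SD, n = 3 each). The 7 raised genes together accounted for 0.164% ± 0.00792 in the mutant and 0.0794% ± 0.00136 in the wild type. These 7 were picked by their rise in the same libraries, so this difference is no separate result.

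**Figure D1:**
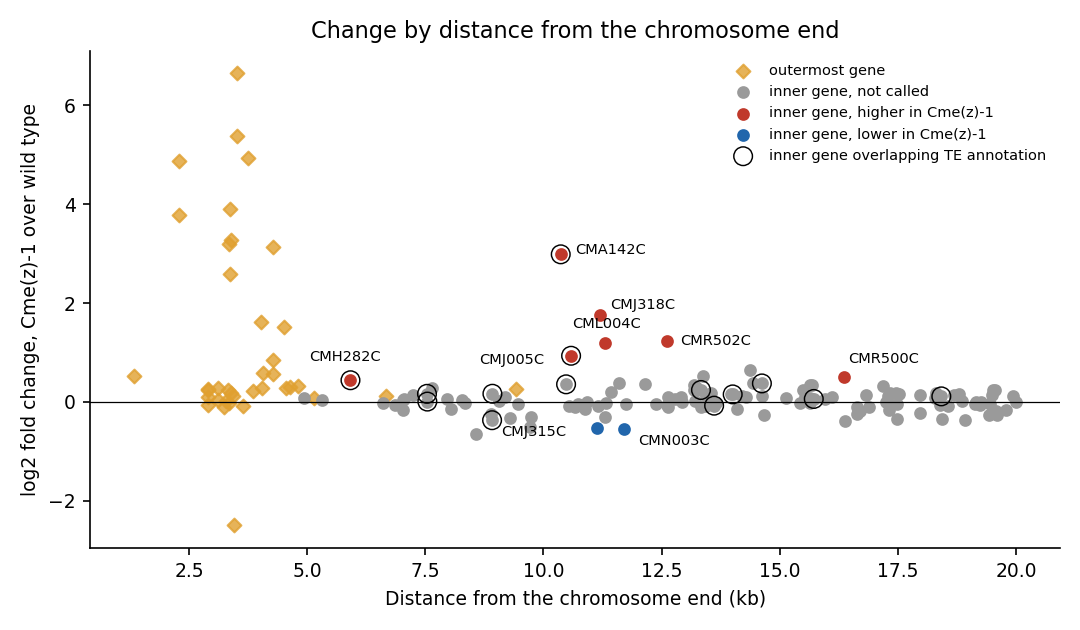
Log2 fold change, mutant over wild type, of each tested gene within 20 kb of a chromosome end against its distance from that end in kb. Diamonds are the outermost genes, circles the inner subtelomeric genes, and black rings mark inner genes that overlap an annotated TE copy. The outermost genes reach 6.65 while 120 of 131 inner genes lie within 0.5 of 0, and CMA142C at 2.99 is the highest inner gene.

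The gene with the largest change, CMA142C, belongs to a set of genes that carry the same annotated repeat, rnd-1_family-62 of the Copia type (long terminal repeat elements that move through an RNA copy). Within the annotation 10 genes overlap a copy of this repeat, over 1140 to 1212 bp each. Of these, 4 are inner subtelomeric genes (CMA142C, CMJ005C, CMC186C and CMC005C) and 6 are outermost genes. All 6 outermost genes, of 2707 to 3286 bp, rose, with log2 fold changes of 2.59 to 4.88.

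CMA142C lies on chromosome 1 from 409272 to 412007 (build ASM9120v1, plus strand, 2736 bp), 10365 bp from the right end, and is the second gene from that end. It had 232, 277 and 204 CPM in the mutant libraries, against 33.1, 31.7 and 25.2 CPM in the wild-type libraries. Every mutant library was above 200 CPM and every wild-type library below 35 CPM. Its level averaged 238 ± 37.1 CPM in the mutant and 29.99 ± 4.25 CPM in the wild type (log2 fold change 2.99, SE 0.16, edgeR adjusted p = 1.4e-05). Its outer neighbour, the outermost gene CMA145C, did not pass the test (log2 fold change 0.84, adjusted p = 0.12), nor did its inner neighbour CMA140C (-0.053, adjusted p = 0.88). The fold change of CMA142C was thus larger than those of both genes beside it, at an end where the outermost gene was not called. The repeat copy inside it, TE_homo_128, had 9, 0 and 3 counts in the mutant libraries and 4, 0 and 0 in the wild-type libraries, too few to test. How reads shared with the raised outermost genes of this repeat were counted is not known, so the rise of CMA142C is uncertain as a separate value.

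CMJ005C, on chromosome 10 from 10585 to 14011 (minus strand, 3427 bp), is the only inner gene at the left end of its chromosome. It had 500.5, 559 and 436 CPM in the mutant libraries, against 269, 266 and 247 CPM in the wild-type libraries. The groups did not overlap, with means of 499 ± 61.6 CPM in the mutant and 261 ± 11.9 CPM in the wild type (log2 fold change 0.93, SE 0.12, edgeR adjusted p = 0.0026). The outermost gene of that end, CMJ002C, rose as well, with 189.6 ± 39.3 CPM in the mutant and 66.4 ± 19.1 CPM in the wild type (log2 fold change 1.51, adjusted p = 0.0044). The TE copies annotated inside CMJ005C did not pass: TE_homo_1594, of the shared repeat, had a log2 fold change of 0.44 (adjusted p = 0.60). How reads on bases shared by the gene and these copies were divided is not known.

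The other 2 inner genes with this repeat lie on chromosome 3 and did not pass. CMC186C (468646 to 471093, second from the right end) had 232, 244 and 226 CPM in the mutant libraries and 180.3, 211 and 157 CPM in the wild-type libraries (log2 fold change 0.36, SE 0.12, adjusted p = 0.16). CMC005C (13334 to 15206, second from the left end) had 143, 146 and 133 CPM in the mutant libraries and 121, 119 and 117 CPM in the wild-type libraries (0.24, SE 0.088, adjusted p = 0.19). In both the mutant values were all above the wild-type values, and the outermost genes of both ends rose, CMC188C by 3.13 and CMC002C by 1.62 on the log2 scale. The 4 inner genes of the set had log2 fold changes of 0.24 to 2.99. Each of the 4 is the second gene from its end. How reads that match several of these genes were counted is not given in the sources used here, so the level of each is uncertain.

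Over all inner subtelomeric genes, 14 overlap an annotated TE copy, 9 of them the second gene from an end. Of these 14 genes 3 rose and 11 did not pass, and 12 had a positive log2 fold change, against 41.8% of all nuclear genes. That share depends on the scaling: with total counts alone, 12 of the 14 were again positive, against 2572 of 4677 nuclear genes. The median log2 fold change of the 14 was 0.16, against 0.0082 for the 117 tested genes without such overlap, of which 4 rose and 2 fell. At an unadjusted p under 0.05, 6 of the 14 were higher (42.9%), against 5.22% of all nuclear genes and 8.7% of the 322 tested interior genes that overlap a TE copy. Over those 322 interior genes the median was 0.0016, and 7 rose and 3 fell.

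The third raised gene of this kind, CMH282C, lies whole within a Copia-type copy of rnd-1_family-51 on chromosome 8 (732289 to 733410, plus strand), 5915 bp from the right end. It had 134, 138 and 141 CPM in the mutant libraries, against 103, 107 and 93.7 CPM in the wild-type libraries. The groups did not overlap (log2 fold change 0.44, SE 0.093, edgeR adjusted p = 0.030). The call was lost with any library left out: adjusted p was 0.10, 0.061 and 0.081 without mutant replicates 1, 2 and 3, and 0.13, 0.0503 and 0.085 without wild-type replicates 1, 2 and 3. CMG217C on chromosome 7 (575272 to 576483) and CMN338C on chromosome 14 (843555 to 844766) lie within copies of the same repeat, are both 1212 bp long and begin 7542 and 7534 bp from their right ends. Both were among the more abundant inner genes, at 711 ± 108 and 665 ± 86.4 CPM in the mutant and 708 ± 51.6 and 594 ± 17.4 CPM in the wild type. Neither passed (log2 fold changes 0.0063 and 0.16, adjusted p = 0.99 and 0.59). Of the copies of the repeat around these 3 genes, that around CMN338C, TE_homo_2854, rose to 282 ± 27.3 CPM in the mutant, against 147 ± 10.3 CPM in the wild type (0.94, SE 0.11, adjusted p = 0.0013). Those around CMH282C (TE_homo_1330, log2 fold change 1.04, adjusted p = 0.13) and CMG217C (TE_homo_1100, 0.22, adjusted p = 0.50) did not pass. Each of these genes shares all its bases with its copy. How reads on them were divided is not known, so gene and copy values are uncertain as separate measures.

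On the right arm of chromosome 18, 2 neighbouring inner genes rose, and neither overlaps a TE copy or another gene. CMR502C (1239368 to 1240030, plus strand, 663 bp) had 76.5, 77.9 and 74.6 CPM in the mutant libraries, against 34.1, 27.1 and 36.4 CPM in the wild-type libraries. The 3 mutant values lay close together and above every wild-type value (log2 fold change 1.23, SE 0.13, edgeR adjusted p = 0.0010). CMR500C, the next gene inwards (1232430 to 1236284, plus strand, 3855 bp), had 389.8, 347 and 352 CPM in the mutant libraries, against 231, 274 and 268 CPM in the wild-type libraries. Again the groups did not overlap (0.49, SE 0.11, edgeR adjusted p = 0.039), but this call was lost with each library left out. Adjusted p was 0.18, 0.073 and 0.0703 without mutant replicates 1, 2 and 3, and 0.196, 0.0596 and 0.065 without wild-type replicates 1, 2 and 3.

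Gypsy-type TE copies flank CMR502C on both sides, and both rose with it. TE_homo_4066, 155 bp away on the outer side, had 52, 35 and 68 counts in the mutant libraries and 0, 3 and 3 counts in the wild-type libraries (adjusted p = 0.0041). TE_homo_4065, 263 bp away on the inner side, had 30, 19 and 21 counts in the mutant libraries and 1, 2 and 4 counts in the wild-type libraries (adjusted p = 0.013). These copies held far fewer counts than the gene between them. The outermost gene of this end, CMR506C, did not pass (log2 fold change 0.23, adjusted p = 0.35), and nor did CMR497C on the inner side of CMR500C (-0.14, adjusted p = 0.78). The part of the nearby TE copies in the rise of CMR502C was not tested.

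**Figure D2:**
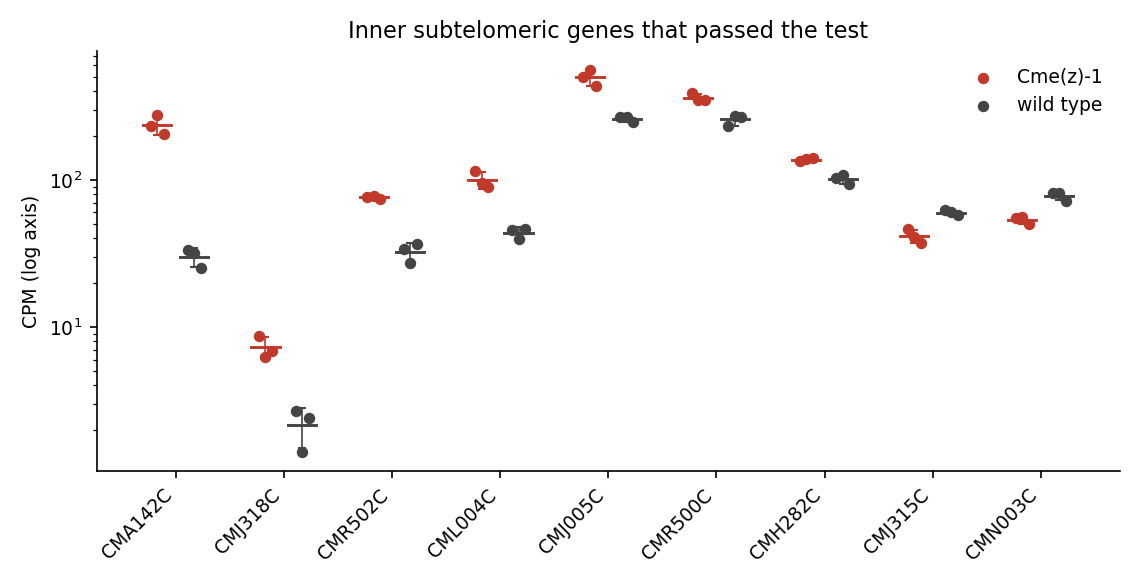
Levels in CPM (log axis) of the 9 inner subtelomeric genes that passed the test, by library, with 3 mutant points at the left and 3 wild-type points at the right of each gene; lines are means and bars are SD. For each gene the groups do not overlap, which is no added support, since the genes were picked by the test on these same values. CMJ318C is the weakest, at 7.31 CPM in the mutant and 2.16 CPM in the wild type.

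The remaining 4 called genes lie at ends that resemble each other in their annotation. The left ends of chromosomes 12, 14 and 17 and the right end of chromosome 10 carry 17 inner genes that fall into 5 positions by distance from the end and orientation, a grouping made after their values were seen. They are called like genes for their place, and their lengths are alike in only some of the positions. The first position holds 3 genes of 517 bp (CML002C, CMQ002C and CMN002C), the second 2 genes of 955 bp (CML003C and CMQ003C), and the fifth 4 genes of 1131 or 1132 bp. In the third position 4 genes of 1137 to 1582 bp reach inwards to 12707 to 12884 bp from the end, and in the fourth 4 genes of 915 to 1236 bp reach to 14287 to 14464 bp. In the third position only CML004C and CMJ315C, of 1581 and 1582 bp, are within 3% of each other in length. Their sequences were not analysed here, so how much of their reads they share is not known.

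The 517 bp genes of chromosomes 12 and 17 had counts that varied widely between libraries, and the cause was not tested. CML002C (7034 to 7550) had 434, 158 and 0 counts in the mutant libraries and 406, 0 and 166 counts in the wild-type libraries. CMQ002C (7041 to 7557) had 0, 158 and 490 counts in the mutant libraries and 0, 324 and 166 counts in the wild-type libraries. In 4 libraries all counts were on 1 of the pair, and in the other 2 libraries the counts were equal. Their sum was far steadier, at 40.3, 38.2 and 45.7 CPM in the mutant libraries and 45.1, 41.6 and 41.96 CPM in the wild-type libraries. CMN002C of the same length (chromosome 14) kept 117 ± 7.95 CPM in the mutant and 115 ± 4.97 CPM in the wild type (log2 fold change 0.034, adjusted p = 0.90). Close counts, though not equal ones, were found in another pair of like length and place, CMI004C (chromosome 9, 8267 to 10780) and CMT006C (chromosome 20, 8341 to 10854), both 2514 bp. CMI004C had 3556, 3041 and 3287 counts in the mutant libraries and 3089, 2884 and 2077 in the wild-type libraries. CMT006C had 3389, 3004 and 3252 counts in the mutant libraries and 3090, 3072 and 2102 in the wild-type libraries, near those of CMI004C in each library.

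In the third position 1 of the 4 like genes rose and 2 fell. CML004C (chromosome 12, 11304 to 12884, plus strand) had 115, 95.6 and 89.7 CPM in the mutant libraries, against 45.6, 39.5 and 46.4 CPM in the wild-type libraries (log2 fold change 1.19, SE 0.13, edgeR adjusted p = 9.4e-04). CMQ004C (chromosome 17, 11589 to 12884) had 106, 99.2 and 102 CPM in the mutant libraries and 89.7, 64.4 and 82.2 CPM in the wild-type libraries, and did not pass (0.38, SE 0.13, adjusted p = 0.16). Both stood higher in every mutant library than in any wild-type library.

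The other 2 genes of that position were the lowered inner genes. CMN003C (chromosome 14, 11705 to 12841, plus strand) had 55.2, 56.0 and 49.9 CPM in the mutant libraries, against 81.1, 81.0 and 72.2 CPM in the wild-type libraries (log2 fold change -0.54, SE 0.11, edgeR adjusted p = 0.021). CMJ315C (chromosome 10, 826772 to 828353, minus strand) had 46.1, 41.1 and 37.4 CPM in the mutant libraries, against 62.1, 60.1 and 57.3 CPM in the wild-type libraries (-0.53, SE 0.12, adjusted p = 0.046). The groups did not overlap for either gene. Summed over the 4 genes, the position held 323, 292 and 279 CPM in the mutant libraries and 278, 245 and 258 CPM in the wild-type libraries, a log2 ratio of means of 0.19. The summed values of the groups lay next to each other, with the lowest mutant library just above the highest wild-type library. Over CML004C, CMN003C and CMJ315C alone the sum was 195 ± 19.9 CPM in the mutant and 182 ± 6.55 CPM in the wild type, and the groups overlapped. The call of CMN003C was lost without mutant replicate 1 (adjusted p = 0.081), mutant replicate 3 (0.068), wild-type replicate 1 (0.13) or wild-type replicate 2 (0.061). That of CMJ315C was lost with each library left out: adjusted p was 0.078, 0.083 and 0.12 without mutant replicates 1, 2 and 3, and 0.21, 0.0965 and 0.0799 without wild-type replicates 1, 2 and 3.

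**Figure D3:**
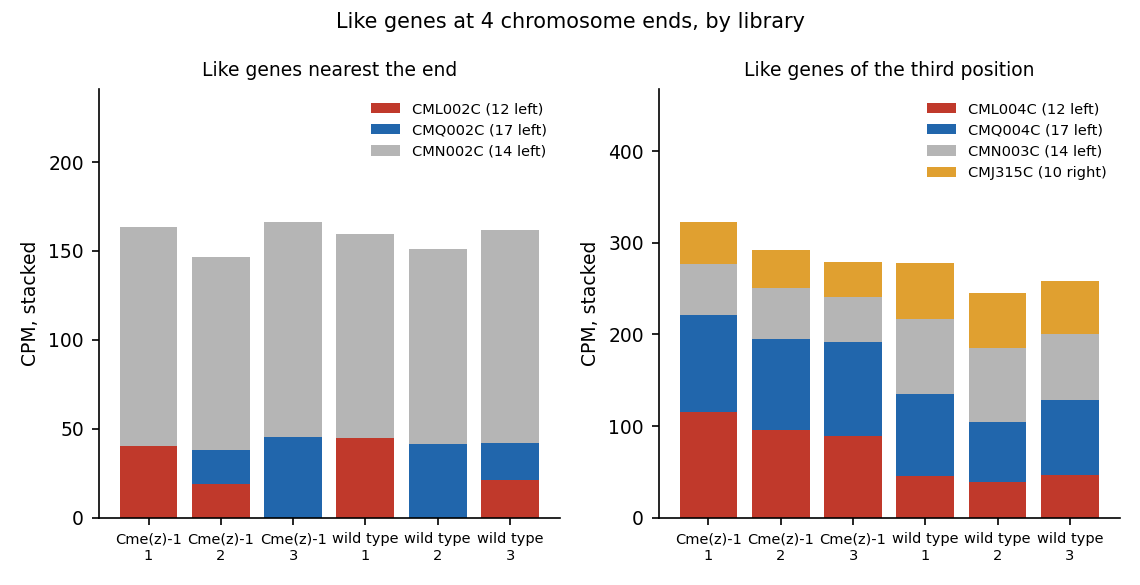
Stacked levels in CPM by library of the 3 like genes of 517 bp (left panel) and of the 4 like genes that begin 11125 to 11704 bp from the end (right panel), with 3 mutant libraries left of 3 wild-type libraries. The levels of CML002C and CMQ002C vary between libraries while their sum keeps between 38.2 and 45.7 CPM. In the right panel CML004C takes a larger part of the column in the mutant.

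The genes of the fourth and the fifth position all had positive log2 fold changes, against 41.8% of all nuclear genes, and each of them missed the threshold. All of them stayed positive with total counts as the only scaling, where 2572 of 4677 nuclear genes were positive. Log2 fold changes were 0.18 to 0.53 in the fourth position (CML005C, CMQ005C, CMN004C and CMJ314C, adjusted p of at least 0.38) and 0.057 to 0.35 in the fifth (CML007C, CMQ006C, CMN006C and CMJ313C, adjusted p of at least 0.29). Summed, the fourth position held 38.3 ± 3.39 CPM in the mutant and 30.8 ± 2.37 CPM in the wild type. The fifth held 151 ± 11.1 CPM in the mutant and 125 ± 15.6 CPM in the wild type. In both sums all mutant values lay above all wild-type values, as in 8.15% of single nuclear genes. The positions were formed after the values were seen and their genes may share reads, so these sums were not tested.

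CMJ318C, the raised gene of lowest level, lies entirely inside the lowered CMJ315C on the opposite strand. It spans 827769 to 828281 of chromosome 10 (plus strand, 513 bp). It had 94, 52 and 74 counts in the mutant libraries, against 24, 11 and 19 in the wild type. This corresponds to 7.31 ± 1.27 CPM in the mutant and 2.16 ± 0.661 CPM in the wild type. The groups did not overlap (log2 fold change 1.75, SE 0.33, edgeR adjusted p = 0.016). The call was lost without mutant replicate 1 (adjusted p = 0.080) or wild-type replicate 1 (0.052). Because the libraries carry no strand, reads from the overlap of CMJ318C and CMJ315C cannot be told apart, so the rise of the first and the fall of the second are uncertain as separate values. The next gene outwards, CMJ316C, had a log2 fold change of -0.045 (adjusted p = 0.88). CME005C and CME006C on chromosome 5 were the only other inner genes that overlap another gene.

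Of the genes that missed the threshold, the 8 of lowest p were 3 with higher and 5 with lower values in the mutant. CME005C on chromosome 5, 86.5% of which is covered by TE annotation, had 118, 124 and 125 CPM in the mutant libraries and 99.2, 86.8 and 97.2 CPM in the wild-type libraries (log2 fold change 0.37, SE 0.093, edgeR adjusted p = 0.059). CMD005C (0.38, adjusted p = 0.076) was likewise higher without overlap between the groups. Both passed when libraries were scaled on nuclear genes alone (adjusted p = 0.033 and 0.046) and in DESeq2 (0.021 and 0.025). DESeq2 also called CMR004C higher (0.035), and CMC008C, CMS009C and CMP356C lower (0.013, 0.024 and 0.042). Over all alternatives adjusted p ran from 0.021 to 0.17 for CME005C and from 0.025 to 0.29 for CMD005C. CMR004C had 143, 191 and 128 CPM in the mutant libraries and 107, 116 and 72.4 CPM in the wild-type libraries (0.64, SE 0.20, adjusted p = 0.12), a larger difference with a wide spread in both groups. On the other side, CMS009C (-0.36, adjusted p = 0.071) and its neighbour CMS008C (-0.34, adjusted p = 0.10) lie together on chromosome 19. CMC008C (-0.34, adjusted p = 0.075), CMP356C (-0.50, adjusted p = 0.12) and CMM332C (-0.30, adjusted p = 0.15) were also lower in all 3 mutant libraries. CMH282C, CME005C and the inner genes of rnd-1_family-62 account for all 6 genes with TE overlap at an unadjusted p under 0.05. In all, 15 inner genes were higher (11.5%) and 9 lower (6.87%) at that level, against 5.22% and 9.99% of all nuclear genes.

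The 5 most abundant inner genes per kilobase did not pass the edgeR test. CMI304C on chromosome 9 led with a mean of 721 CPM per kb over the 6 libraries. It had 738, 767 and 955 CPM in the mutant libraries and 1291, 916 and 856 CPM in the wild-type libraries (log2 fold change -0.32, SE 0.19, adjusted p = 0.45), and the groups overlapped. CMP007C followed with 691 CPM per kb, CMD187C with 673, CMG217C with 585 and CMC008C with 551. CMC008C, described above, was lower in every mutant library than in any wild-type library (log2 fold change -0.34). Log2 fold changes of CMP007C, CMD187C and CMG217C lay between -0.018 and 0.085, and that of CMP007C turned positive (0.041) with total counts as the only scaling.

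Strongly raised TE copies lay on or beside inner genes that did not pass. Of 64 tested TE copies that overlap an inner gene or lie within 1000 bp of it, 18 rose (28.1%) and the others did not pass, against 7.1% raised and 1.04% lowered over all 2776 tested copies. A raised TE copy was found at 26 of the 40 ends. Over all tested TE copies counted at the 40 ends, the share that rose was not below 28.1%. The 28.1% is thus not particular to copies beside inner genes. In total 22 inner genes had a raised copy on them or within 1000 bp. Among these 22 genes CMR502C rose, the other 21 did not pass, and the median log2 fold change was 0.076. Of 56 tested genes with TE copies nearby but none raised, 4 rose, and of 53 with no copy nearby 2 rose and 2 fell. Over all tested nuclear genes 1.3% rose and 1.86% fell.

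A sharp contrast was found at the left end of chromosome 1. The Gypsy-type copy TE_homo_2 (11310 to 13794) had 8518, 6097 and 7037 counts in the mutant libraries, against 21, 17 and 16 counts in the wild-type libraries (log2 fold change 8.37, SE 0.17). CMA004C (13612 to 13980, plus strand) overlaps its inner edge over 49.6% of the gene. How reads on the shared bases were divided between gene and copy is not known, so their values are uncertain as separate measures. CMA004C had 926, 860 and 907 counts in the mutant libraries and 855, 779 and 746 counts in the wild-type ones. Its level averaged 91.5 ± 10.8 CPM in the mutant and 96.4 ± 3.11 CPM in the wild type (-0.076, SE 0.11, adjusted p = 0.79), with overlapping groups. The next gene, CMA005C, 831 bp from the same copy, had a log2 fold change of 0.11 (adjusted p = 0.57).

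Similar contrasts were found at other ends. On chromosome 5 the copy TE_homo_562, 53 bp from CME004C, had 508 ± 67.3 CPM in the mutant and 2.75 ± 0.890 CPM in the wild type. CME004C itself had 139.9, 195 and 124 CPM in the mutant libraries and 146, 122 and 141 CPM in the wild-type libraries (log2 fold change 0.16, SE 0.16, adjusted p = 0.68). On chromosome 20 the copy TE_homo_4412 ends where CMT006C begins, and had 235 ± 43.2 CPM in the mutant and 11.4 ± 3.96 CPM in the wild type. CMT006C had a log2 fold change of -0.032 (adjusted p = 0.95). On chromosome 19 the copy TE_homo_4072 rose 104 bp from CMS004C, which had 501, 664 and 312 CPM in the mutant libraries and 846, 753 and 731 CPM in the wild-type libraries (-0.66, SE 0.24, adjusted p = 0.19). CMS004C, singled out after its values were seen, had the lowest log2 fold change of all tested inner genes and a wide spread between mutant libraries.

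**Figure D4:**
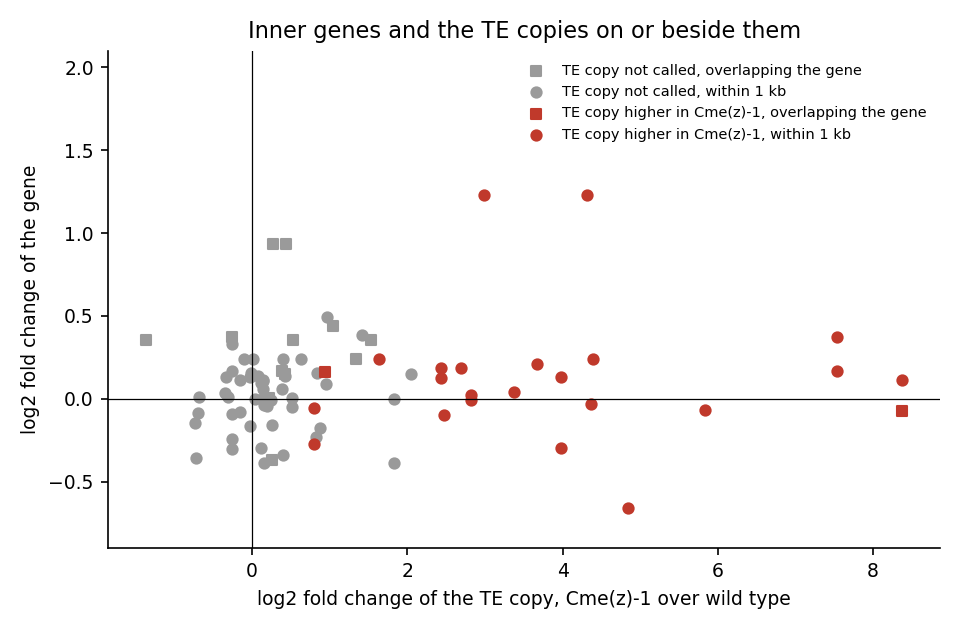
Log2 fold change, mutant over wild type, of each tested inner subtelomeric gene (vertical axis) against that of each tested TE copy that overlaps it (squares) or lies within 1 kb (circles), for 85 pairs. Red points are TE copies that rose; they reach 8.37 while the genes beside them lie between -0.66 and 1.23.

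An inner gene rose at 6 of the 40 ends, and the outermost gene at 13. At 1 of these 13, the left end of chromosome 10, both rose (CMJ005C). The 35 tested inner genes of these 13 ends had a median log2 fold change of 0.085, with 1 raised and the others not passing. At 24 ends the outermost gene was tested and not called, and there 85 inner genes had a median of 0.017, with 5 raised and 2 lowered. Among the latter calls are CMJ318C and CMJ315C, which overlap and are uncertain as separate values. Over all tested nuclear genes 1.3% rose and 1.86% fell. CML004C lies at an end where the outermost gene had too few counts to test. These differences between ends were not tested.

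The called genes were spread over positions as follows, and the differences between positions were not tested. Of 39 tested genes in the second place 4 rose and 35 did not pass (median log2 fold change 0.061), of 36 in the third place 2 rose and 1 fell (0.0048), and of 56 further in 1 rose and 1 fell (0.0068). By distance, 1 of 26 genes under 10 kb rose, 5 of 51 rose and 2 fell between 10 and 15 kb, and 1 of 54 rose from 15 to 20 kb, against 1.3% raised and 1.86% lowered over all nuclear genes. Of the 7 raised genes 6 are transcribed towards the chromosome end, as are 71 of the 131 tested, while both lowered genes are transcribed away from it. For comparison, 13 of 38 tested outermost genes rose, with a median log2 fold change of 0.29. Over the 223 genes that lie 20 to 40 kb from an end 3 rose and 6 fell, with a median of 0.0029.

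**Figure D5:**
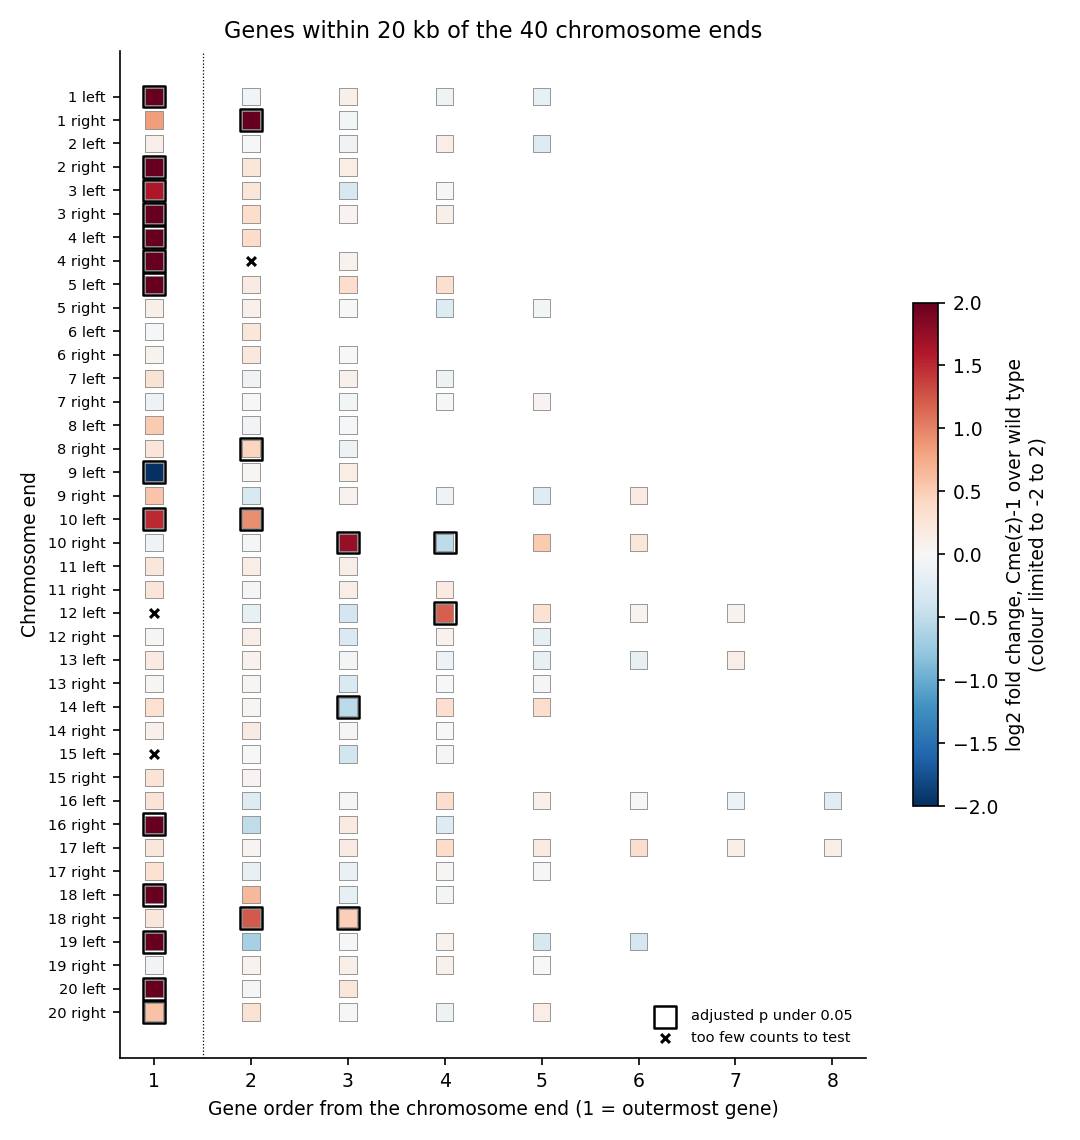
Log2 fold change, mutant over wild type, of every gene within 20 kb of the 40 chromosome ends, with one row per end and genes in order from the end (1 is the outermost gene). Colours run from -2 to 2, black frames mark an adjusted p under 0.05 and crosses genes with too few counts. Frames crowd in the first column (13 raised and 1 lowered gene), against 7 raised and 2 lowered genes in the others.

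The genes on both sides of the 20 kb limit did not pass the test. Just inside it, CMC009C (19993 bp), CMM009C (19926 bp) and CMA008C (19780 bp) had log2 fold changes of 0.0055, 0.13 and -0.17. Just outside, CMD186C (20672 bp), CMD006C (20699 bp) and CMT630C (20727 bp) had -0.14, -0.031 and -0.0998.

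The only inner gene with too few counts to test was CMD190C, at the right end of chromosome 4 beside the raised outermost gene CMD191C. It had 16, 11 and 6 counts in the mutant libraries, against 1 count in each wild-type library. The ratio of summed counts, scaled by library size, was 9.13, with a 95% exact binomial interval of 2.86 to 46.5 that covers counting error only. Without the low-count filter its adjusted p was 0.063 in the edgeR test.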

How the data were processed

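Poly(A) RNA-seq of 3 Cme(z)-1 and 3 wild-type libraries was used. The authors deposited whole-number read counts per gene and per TE copy, with a separate table for each library. The submitters' processing notes name Trim Galore and STAR, with no version. The counting program is not given in the sources used here. Nor is its handling of reads with several matches or on bases shared by a gene and a TE copy. Positions come from the deposited gene annotation, whose file header gives build ASM9120v1, and from a TE annotation whose lines name EDTA. RefSeq's table for ASM9120v1 matched all inner subtelomeric genes by locus tag; its positions equal the deposited ones for 64 and differ for 68, mostly by 1 base at the start. It gives no products, so the planned groups by function could not be made. Genes that look alike were grouped by length, position or annotated repeat only, and near-identity of sequence was not measured.

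Counts of 4865 genes and 2776 TE copies passed filterByExpr (minimum count 10, minimum total 15) and were tested with R 4.3.3 and edgeR 4.0.16 (TMM, glmQLFit, glmQLFTest, Benjamini-Hochberg over all rows; common biological coefficient of variation 0.167). Standard errors come from the F statistic. The fit was checked on simulated data. Library totals were 7860491 to 10754544. No pair of replicates agreed within counting noise (chi-square divided by its degrees of freedom, 16.2 to 33.3). The alternatives were other scalings, filters and rows, DESeq2 1.42.0, limma voom (limma 3.58.1), the replicate block, each library left out and other choices of members. Named are called genes and their neighbours, the 8 uncalled genes of lowest p, the 5 of highest level per kb, 3 on each side of the limit, and genes of shared repeats. Members and lists were chosen with earlier results of these data known.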

Additional observations from a re-analysis of the deposited data

How the results depend on the processing

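The number of raised inner genes stayed within 1.5 times the 7 found in the edgeR test under every other scaling, filter and tool tried (6 to 10, the lowest with the replicate block), and was 4 to 6 with 1 library left out. It was 1 within 10 kb of the end, 4 without TE overlap and 1 among the 10 genes unlike in length to any other gene of the ends. The number of lowered genes, 2, was 1 with total-count scaling, scaling on nuclear genes, genes tested alone or the replicate block, and 6 in DESeq2. It was 0 to 1 with 1 library left out, 0 within 10 kb, 8 within 40 kb, 0 among genes unlike in length, 0 without the like genes of 4 ends and 1 without genes that overlap another gene, the last 2 chosen after seeing the data. The median log2 fold change, 0.034, was 0.093 with total counts, 0.084 with scaling on nuclear genes and 0.055 with genes alone. It was 0.015 to 0.067 with 1 library left out, 0.010 within 10 kb, 0.0092 within 40 kb, 0.0082 without TE overlap, 0.086 among genes unlike in length and 0.0073 without the like genes of 4 ends. The excess share of nuclear gene counts, 0.19 percentage points, ran from 0.16 to 0.22 with 1 library left out. As a share of all gene and TE counts the excess was 0.14 percentage points. The cause of these shifts was not tested, and some settings also differ in the number of genes or samples left.

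Over all nuclear genes 61 rose and 87 fell, against 109 and 209 in DESeq2 and 48 and 65 with the replicate block. Without mutant replicate 1 these were 39 and 33, and without wild-type replicate 1 they were 35 and 29. In their deviations from the group means, mutant replicates 2 and 3 correlated best with the same-numbered wild-type libraries (0.13 and 0.26). Mutant replicate 1 correlated best with wild-type replicate 2 (0.14, against 0.022 with wild-type replicate 1). Deviations within a group of 3 are not independent of each other, so whether the numbers pair the libraries cannot be told. With the replicate block CMH282C (adjusted p = 0.064), CMR500C (0.084) and CMJ315C (0.051) missed the threshold and CMR004C passed (0.026). CMJ315C also missed it with total-count scaling (0.0697), scaling on nuclear genes (0.068) and genes alone (0.078).

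Among the named genes, sign changes were found in CMP007C, CMD187C, CMG217C and CMC009C, all with a log2 fold change within 0.1 of 0. CMP007C had 0.041 with total counts, 0.034 with nuclear scaling, 0.0042 with genes alone and -0.12 to 0.089 with 1 library left out. For CMD187C that range was -0.0079 to 0.16. CMG217C had -2.5e-04 without a filter, -0.0049 in limma voom, -0.0017 with the replicate block and -0.12 to 0.090 with 1 library left out. CMC009C had -7.5e-04 without a filter and -0.066 to 0.065 with 1 library left out. Low counts limit CML003C, CMJ318C, CMJ314C and CMD190C.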
